A study of Mus musculus with 32 samples.

Results

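Transcripts of 10 genes of the matrix metalloproteinase (MMP) family, Mmp2, Mmp3, Mmp9, Mmp10, Mmp11, Mmp12, Mmp13, Mmp14, Mmp16 and Mmp19, were measured by RNA sequencing in primary mouse chondrocytes, the cells of cartilage. The genes were taken by name from a list of family members and matched by symbol to the Ensembl identifiers of the deposited counts. All 10 were found among the 41388 genes counted, and all 10 were kept by the filter on low counts in every comparison. Mmp3, Mmp9, Mmp10 and Mmp12 were kept through libraries with IL-1β, as described later. MMPs are zinc-dependent proteases, most of them secreted as inactive precursors, that together can cleave nearly every component of the extracellular matrix. In cartilage they are known for the breakdown of aggrecan and type II collagen in arthritis, and inflammatory cytokines such as IL-1β are known to raise the transcription of several of them. Their activity is held in check by tissue inhibitors of metalloproteinases (TIMPs), and some MMPs activate the precursors of others.

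The chondrocytes came from the sterna and ribs of C57BL/6 mice 1 to 3 days old, taken without regard to sex and used without expansion, with 2 libraries for each of 16 conditions and 32 libraries in all. Wild-type chondrocytes received no virus. For 24 h they had no agent, IL-1β at 10 ng/mL, FX11 at 40 µM, or IL-1β together with FX11, which inhibits the lactate dehydrogenase LDHA. Chondrocytes with floxed Ldha (Ldha f/f), floxed Nampt (Nampt f/f) or floxed Nfkbiz (Nfkbiz f/f) were infected for 24 h with adenovirus carrying eGFP (GFP virus) or Cre recombinase with eGFP (Cre virus), and were then cultured for 24 h with or without IL-1β. Nampt is the rate-limiting enzyme of the salvage pathway to NAD, and Nfkbiz encodes IκB-ζ, a nuclear partner of NF-κB. No wild-type library received Cre virus, so within a line the loss of the floxed gene and the Cre virus itself cannot be told apart. Nothing in the labels says that the 2 libraries of a condition came from separate cultures, so the p-values measure the spread between these libraries, which may be technical. In bulk RNA, fewer cells of a type and less RNA per cell cannot be told apart.

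Library totals ran from 15830658 to 39959888 counts, and levels are given as CPM, the count scaled to a common TMM-adjusted library total. The sample titles come in 2 forms, taken here as 2 library sets. The first (12 libraries) ran from 23783890 to 39959888 and the second (20) from 15830658 to 29248326. All 8 Nfkbiz f/f libraries belong to the second set, which also holds the second library of every other condition. Comparisons of Nfkbiz f/f with both sets of the other lines therefore mix line and set. Ldha fell from 918 and 869 CPM with GFP virus to 118 and 111 CPM with Cre virus in Ldha f/f chondrocytes. Nampt fell from 59.5 and 54.6 to 6.72 and 6.86 CPM in Nampt f/f chondrocytes. Nfkbiz fell from 235 and 229 to 29.5 and 32.3 CPM with IL-1β in Nfkbiz f/f chondrocytes, and from 16.1 and 17.0 to 9.65 and 8.28 CPM without it. The defining chondrocyte transcripts Col2a1 and Acan were present in all 32 libraries, Col2a1 at no less than 11250 CPM and Acan at no less than 772 CPM. In wild-type chondrocytes the second library labelled IL-1β held 0.784 CPM of Mmp3, as the untreated libraries did, and the second library labelled FX11 held 2016 CPM. Both go against their labels, are called the library labelled IL-1β and the library labelled FX11 here, and keep their labelled groups. The main results therefore come from the 24 floxed libraries, and the wild-type values follow at the end.

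By position (GRCm38, from GENCODE), 4 of the 10 genes lie in 1 cluster on chromosome 9, where 10 MMP genes span 7272514 to 7699585. Mmp13 lies at 7272514 to 7283333, Mmp12 at 7344381 to 7369499, Mmp3 at 7445822 to 7455972 and Mmp10 at 7502352 to 7510238, all on the plus strand. The other 6 lie elsewhere. Mmp2 is on chromosome 8, Mmp9 on chromosome 2, Mmp14 on 14, Mmp16 on 4, and Mmp11 and Mmp19 on 10. Between Mmp3 and Mmp10, 8.39% of the 50-base words of the Mmp3 transcripts also occurred in another gene, and 8.37% of those of Mmp10 occurred in Mmp3, so reads that lie wholly in such words could not be assigned to 1 gene. Exons of Mmp19 overlap those of Tmem198b on the opposite strand over 789 bases, 23.1% of the Mmp19 exons, and whether counting used the strand is not stated, so the Mmp19 values are uncertain.

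The 4 clustered genes all rose with IL-1β, as described later, and the RefSeq promoter windows (GRCm38.p6, 250 bases before to 50 bases after the start of transcription) of 6 of the 10 genes were searched for letters that they share. Mmp2, Mmp9, Mmp16 and Mmp19 had no entry. An AP-1 motif, TGANTCA on either strand, occurred in the windows of Mmp3, Mmp10 and Mmp13 and in 1 of the 2 windows of Mmp12, within 63 bases of the start in each. It occurred in neither Mmp11 nor Mmp14, and in 7.81% of the 32851 windows of all genes. A TATAAA box on the forward strand (8.32% of windows) occurred in the same 4 windows, although in Mmp12 it lay 5 bases past the start. The NF-κB consensus (8.46% of windows) occurred in 1 window, the other of the 2 of Mmp12. The 100 bases before each start are shown with these motifs in capitals, for the 4 clustered genes, and for Mmp14, the most abundant of the 10 before IL-1β, as the contrast. Both windows of Mmp12 are given, of which the first holds neither the AP-1 motif nor the TATAAA box. A match of letters is a description and not evidence that a factor binds there.
Mmp13, chr9:7272414-7272513, plus strand: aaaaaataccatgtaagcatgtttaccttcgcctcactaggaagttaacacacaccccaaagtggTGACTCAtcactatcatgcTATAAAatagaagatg
Mmp3, chr9:7445722-7445821, plus strand: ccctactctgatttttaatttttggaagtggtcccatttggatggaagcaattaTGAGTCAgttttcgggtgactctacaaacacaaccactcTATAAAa
Mmp10, chr9:7502242-7502341, plus strand: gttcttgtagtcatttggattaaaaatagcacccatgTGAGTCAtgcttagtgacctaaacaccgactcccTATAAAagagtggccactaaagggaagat
Mmp12, first window, chr9:7344297-7344396, plus strand: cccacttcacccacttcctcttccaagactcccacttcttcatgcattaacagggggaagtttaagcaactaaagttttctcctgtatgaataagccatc
Mmp12, second window, chr9:7347274-7347373, plus strand: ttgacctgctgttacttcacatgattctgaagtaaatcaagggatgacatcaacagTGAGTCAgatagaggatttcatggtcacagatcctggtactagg
Mmp14, chr14:54431498-54431597, plus strand: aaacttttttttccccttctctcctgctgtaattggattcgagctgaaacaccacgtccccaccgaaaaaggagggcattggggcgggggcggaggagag

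Without IL-1β and with GFP virus, the chondrocytes expressed 3 of the 10 genes at clearly higher levels per length than the rest. Mmp14, the membrane-bound protease that activates the Mmp2 precursor, led in all 3 lines, with a mean of 81.5 in Ldha f/f, 81.6 in Nampt f/f and 60.3 in Nfkbiz f/f in RPKM, which is CPM per kilobase of exon. Mmp2, gelatinase A, followed at 42.6, 39.2 and 40.5 RPKM, and Mmp13, the collagenase best known for cleaving type II collagen, at 17.8, 16.5 and 18.5 RPKM. Mmp16, a second membrane-bound member, and Mmp11 followed in every line at 1.99 to 7.48 RPKM. Mmp3 and Mmp19 lay next and changed places between lines, Mmp19 being above Mmp3 in Ldha f/f and Nampt f/f and below it in Nfkbiz f/f. Mmp9, Mmp10 and Mmp12 held the last 3 places in every line, at no more than 0.263 RPKM. In the GFP libraries without IL-1β, Mmp12 had 0 to 14 counts, Mmp10 had 2 to 18, Mmp9 had 5 to 37 and Mmp3 had 14 to 66. Folds of these genes against those libraries rest on few reads.

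IL-1β changed both the amount and the make-up of the MMP transcripts. Summed over the 10 genes, the level rose from 127.9 to 162.8 RPKM in the 6 GFP libraries without IL-1β to 694 to 1404 RPKM in the 6 with it. Mmp3 went from 0.375%, 0.205% and 0.98% of that sum in the chondrocytes of the Ldha, Nampt and Nfkbiz f/f lines to 66.0%, 68.1% and 72.3%. Mmp14 went from 53.0%, 54.6% and 45.8% to 11.1%, 11.4% and 5.16%. Mmp13 kept a near-constant share, from 11.6%, 11.1% and 14.1% to 11.4%, 10.8% and 15.5%, while its level rose. Shares are descriptions, with no test.

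**Figure D1:**
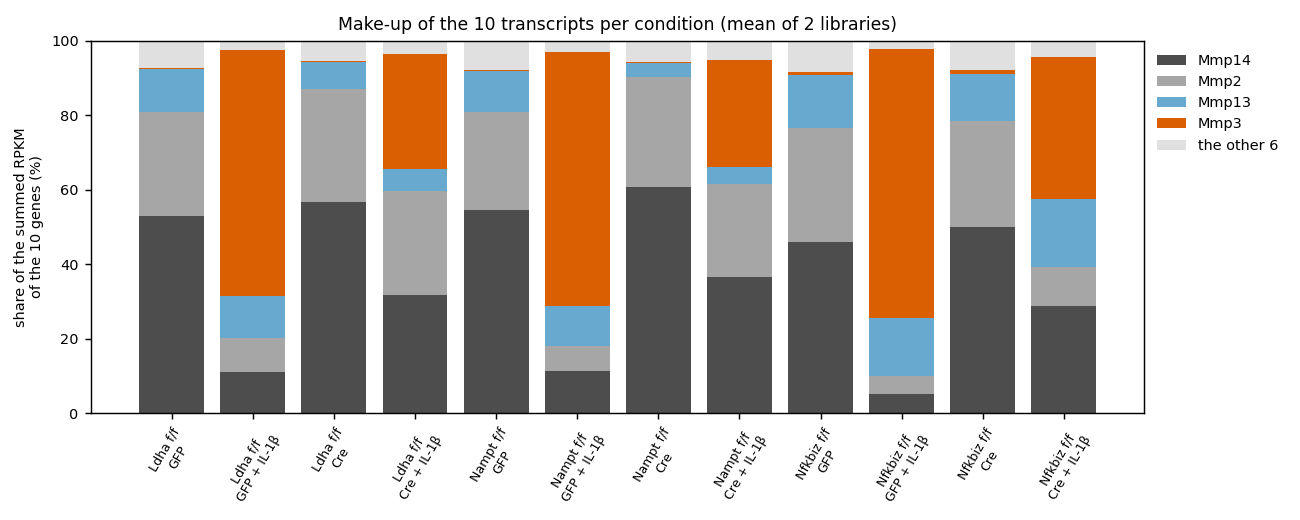
Share of the summed RPKM of the 10 MMP genes (%, 0 to 100, mean of 2 libraries) in each of the 12 conditions of the floxed lines, with Mmp14, Mmp2, Mmp13, Mmp3 and the other 6 genes stacked in each bar. Mmp14 and Mmp2 fill most of each bar without IL-1β, and Mmp3 fills 66.0% to 72.3% with GFP virus and IL-1β but 28.8% to 38.0% with Cre virus and IL-1β.

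In the comparison of all 6 GFP libraries with IL-1β against the 6 without, which asks how the cytokine acts on chondrocytes that keep the floxed gene, edgeR's quasi-likelihood test called 7 of the 10 genes at an adjusted p of 0.05 or less. Of the 7, 6 rose and 1 fell. The filter on low counts, over 1 CPM in at least 5 libraries, kept 4 of the 7 only through the group where they were high. Mmp9, Mmp10 and Mmp12 stayed below 1 CPM in every floxed library without IL-1β, and Mmp3 passed it in 3 of the 6 GFP libraries. These 4 could hardly have been tested without a rise, so the count of 7 is a description. With no filter their log2 fold changes hardly moved, but the p-values of that fit were smaller by many orders of magnitude and are not relied on. The background was high, since 56.2% of the 14283 genes tested were called, 28.0% as higher and 28.3% as lower. The median log2 fold change was 1.61 over the 10 genes and -0.008 over all genes tested. The first median includes the 4 genes kept through the libraries where they were high, so it is a description too. Values of the 6 libraries with and the 6 without IL-1β did not overlap for the 7 called genes and overlapped for the other 3. No share of all genes without overlap is given beside this, so it is a description of these genes only.

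The stromelysins Mmp3 and Mmp10, which cleave proteoglycans and activate other MMP precursors, rose most in this comparison. Mmp12 lay close to Mmp10, and within Nfkbiz f/f it rose more (log2 6.81 ± 0.61 against 6.09 ± 0.22), though not in the other lines. Mmp3 lay between 0.355 and 2.78 CPM (median 1.02) without IL-1β and between 849 and 1817 CPM (median 876) with it, and the 2 Nfkbiz f/f libraries were the highest in both arms. Its log2 fold change was 9.92 ± 0.14 (SE, n = 6 and 6), a 966-fold rise (edgeR adjusted p = 3.59e-18). Mmp10 lay between 0.105 and 0.548 CPM (median 0.307) without IL-1β and between 13.4 and 32.4 CPM (median 19.5) with it, where the 2 Nfkbiz f/f libraries were again the highest. Its log2 fold change was 5.95 ± 0.15 (edgeR adjusted p = 7.26e-15).

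Mmp12, the macrophage metalloelastase, lay between 0 and 0.401 CPM (median 0.194) without IL-1β and between 5.597 and 16.8 CPM (median 7.35) with it. Its log2 fold change was 5.40 ± 0.29 (edgeR adjusted p = 9.08e-11). Mmp13 lay between 43.2 and 50.03 CPM (median 47.5) without IL-1β, a narrow range over the 3 lines, and between 200.4 and 584 CPM (median 223) with it. The 2 Nfkbiz f/f libraries, at 584 and 567 CPM, stood above the other 4, which held 200.4 to 228 CPM. The log2 fold change of Mmp13 was 2.66 ± 0.17, a 6.34-fold rise (edgeR adjusted p = 7.71e-10).

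The gelatinases, which cleave denatured collagen, both rose, but by unlike amounts. Mmp9 lay between 0.223 and 0.939 CPM (median 0.812) without IL-1β and between 3.01 and 6.85 CPM (median 5.44) with it, a log2 fold change of 2.86 ± 0.17 (edgeR adjusted p = 3.16e-10). Mmp2, already abundant, lay between 110.1 and 132 CPM (median 128) and between 135 and 214 CPM (median 196), a log2 fold change of 0.56 ± 0.07 (edgeR adjusted p = 2.16e-06). Mmp9 and Mmp12 are also genes of macrophages and osteoclasts, and the summed level of the 9 markers of those cells moved with IL-1β too, from 15.4 to 26.0 CPM in the 6 GFP libraries without it to 26.4 to 53.6 CPM with it. Of the 9 markers, 4 could be tested and 3 rose (Cd68, Lyz2 and Acp5), while the osteoclast markers Ocstamp and Calcr were at 0 counts in 11 and 12 of the 24 floxed libraries. Mmp9 is a gene of neutrophils too, and of the 4 neutrophil markers the 2 that could be tested also rose, S100a8 by log2 0.81 ± 0.21 and S100a9 by 0.58 ± 0.14. Their sum went from 1.69 to 8.19 CPM without IL-1β to 3.74 to 15.1 CPM with it, while the neutrophil marker Ly6g was at 0 counts in 20 of the 24 floxed libraries. The part of these markers in the Mmp9 and Mmp12 results was not tested.

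The membrane-bound members and the remaining 2 genes did not follow the genes that rose. Mmp16 fell, from 51.1 to 70.3 CPM (median 58.9) without IL-1β to 28.7 to 42.9 CPM (median 31.1) with it, a log2 fold change of -0.82 ± 0.06 (edgeR adjusted p = 5.5e-09). Mmp14 lay between 151 and 233 CPM (median 201) and between 178 and 215 CPM (median 209), with a log2 fold change of 0.09 ± 0.05 (edgeR adjusted p = 0.18). Mmp11, whose precursor is activated inside the cell by furin, lay between 4.90 and 9.03 CPM (median 6.96) and between 5.19 and 7.71 CPM (median 5.66), with a log2 fold change of -0.19 ± 0.14 (edgeR adjusted p = 0.249). Mmp19 lay between 3.38 and 6.67 CPM (median 4.32) and between 3.83 and 6.67 CPM, with a log2 fold change of 0.25 ± 0.13 (edgeR adjusted p = 0.114). Mmp14, Mmp11 and Mmp19 each crossed the threshold under some settings. Mmp14 was called without TMM scaling (0.15, adjusted p = 0.0194) and without the first Ldha f/f GFP library (0.13, 0.0413), Mmp11 by voomWithQualityWeights (-0.27, 0.0369), and Mmp19 without TMM scaling (0.31, 0.0495) and without the first Nampt f/f GFP library without (0.35, 0.0366) or with IL-1β (0.33, 0.0493).

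**Figure D2:**
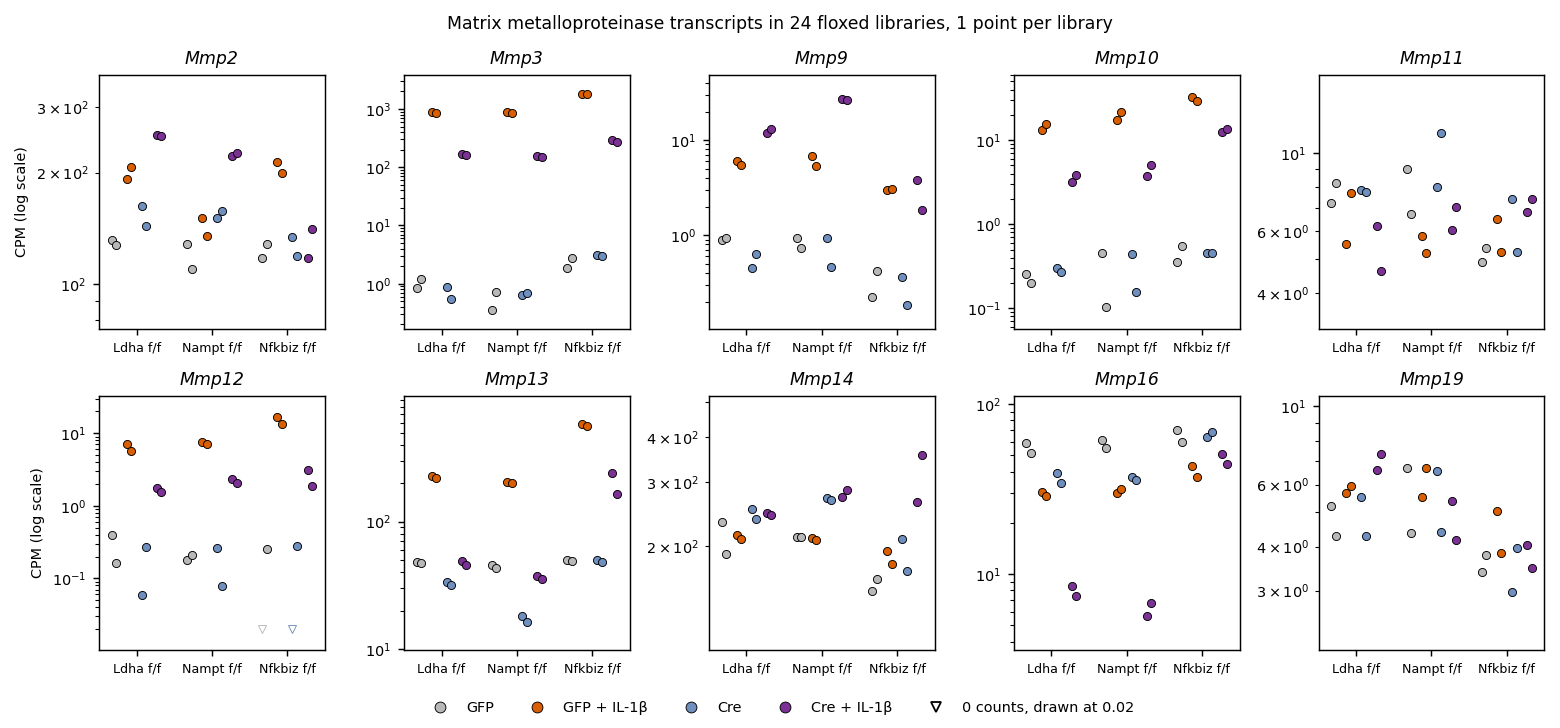
Level of each of the 10 MMP genes in CPM (log scale) in the 24 floxed libraries, 1 point per library, by line and coloured by condition, with libraries at 0 counts drawn as open triangles at the foot. With GFP virus, points with and without IL-1β are apart for Mmp2, Mmp3, Mmp9, Mmp10, Mmp12, Mmp13 and Mmp16, and with Cre virus and IL-1β Mmp3 lies at 149.5 to 289.8 CPM, below the 849 to 1817 CPM with GFP virus and IL-1β.

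Within each line the same 7 genes were called with GFP virus, 6 higher and 1 lower. Among all genes tested 27.9% were called in Ldha f/f, 35.0% in Nampt f/f and 26.8% in Nfkbiz f/f. Here too Mmp9, Mmp10 and Mmp12, and in Nampt f/f Mmp3, passed the filter only through libraries with IL-1β, so the counts are descriptions. Mmp3 rose by log2 9.76 ± 0.17, 10.81 ± 0.15 and 9.60 ± 0.18 in the Ldha, Nampt and Nfkbiz f/f lines (n = 2 and 2 each). Mmp10 rose by log2 5.92 ± 0.27, 5.87 ± 0.40 and 6.09 ± 0.22. Mmp13 rose by log2 2.23 ± 0.07, 2.22 ± 0.07 and 3.55 ± 0.16. Mmp12 rose by log2 4.41 ± 0.47, 5.26 ± 0.41 and 6.81 ± 0.61, and in Nfkbiz f/f 1 of the 2 GFP libraries without IL-1β had 0 counts, against which the floor of 3 counts gives a rise of at least 112.7-fold. Mmp9 rose by log2 2.67 ± 0.22, 2.85 ± 0.26 and 3.21 ± 0.51, and Mmp16 fell by log2 0.89 ± 0.10, 0.90 ± 0.10 and 0.68 ± 0.12. Mmp2 rose by log2 0.62 ± 0.08, 0.28 ± 0.08 and 0.76 ± 0.11. In Nampt f/f that call was lost without the first library with IL-1β (0.21, edgeR adjusted p = 0.131) or without the second library without it (0.19, 0.112). Leaving out 1 library also moved the low-count rises by more than 1.5-fold. The Mmp12 value was 5.27 without the first Ldha f/f GFP library and 5.87 without the first Nfkbiz f/f GFP library. Without the second it was 11.39, but the library left then has 0 counts and that value depends on the prior count. In Nampt f/f the Mmp10 value was 7.49 and the Mmp3 value 10.21 without the first GFP library. With the library set as a block, which the pairing of Ldha f/f and Nampt f/f libraries allows, Mmp11 was also called as lower in Nampt f/f (-0.52, edgeR adjusted p = 0.0206).

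With Cre virus the response to IL-1β was also called for 7 of the 10 genes in each line. Among all genes tested 35.9%, 43.9% and 22.1% were called in the Ldha, Nampt and Nfkbiz f/f lines. The same limit of the filter holds here, so these counts are descriptions too. Mmp3 rose by log2 7.82 ± 0.17, 7.90 ± 0.14 and 6.54 ± 0.16, and Mmp10 by 3.61 ± 0.28, 3.78 ± 0.41 and 4.84 ± 0.23. Mmp13 rose by log2 0.57 ± 0.07 in Ldha f/f, by 1.13 ± 0.08 in Nampt f/f and by 2.06 ± 0.15 in Nfkbiz f/f. Mmp9 rose by log2 4.60 ± 0.24, 5.21 ± 0.24 and 3.33 ± 0.53, and Mmp12 by 3.50 ± 0.57, 3.60 ± 0.42 and 4.14 ± 0.71. Mmp16 fell by log2 2.16 ± 0.12 and 2.52 ± 0.11 in Ldha f/f and Nampt f/f and by 0.47 ± 0.12 in Nfkbiz f/f. Mmp2 rose by log2 0.75 ± 0.08 and 0.58 ± 0.08 in the first 2 lines, while in Nfkbiz f/f its value was 0.04 ± 0.11 (edgeR adjusted p = 0.85) and Mmp14 was called instead, at 0.71 ± 0.14. In Nfkbiz f/f the Mmp16 call was lost without the second Cre library (-0.41, adjusted p = 0.0965) or without the second with IL-1β (-0.38, 0.0634). The Mmp9 value there was 2.71 without the first Cre library with IL-1β, and DESeq2 did not call Mmp12 (4.20, 0.0577). There 1 Cre library without IL-1β had 0 Mmp12 counts, against which the rise was at least 18.25-fold at the floor of 3 counts, and without it the fitted value was 3.17. Without the other, only the library at 0 counts was left, and the value of 8.82 depends on the prior count. The Mmp12 value lay between 2.64 and 4.76 without 1 or the other Ldha f/f Cre library, and was 4.79 without the first Nampt f/f Cre library, which also moved Mmp10 to 4.81 and Mmp9 to 5.87. With the library set as a block, Mmp19 in Ldha f/f (0.53, adjusted p = 0.0285) and Mmp11 (-0.52, 0.00973) and Mmp14 (0.10, 0.0362) in Nampt f/f were called too.

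**Figure D3:**
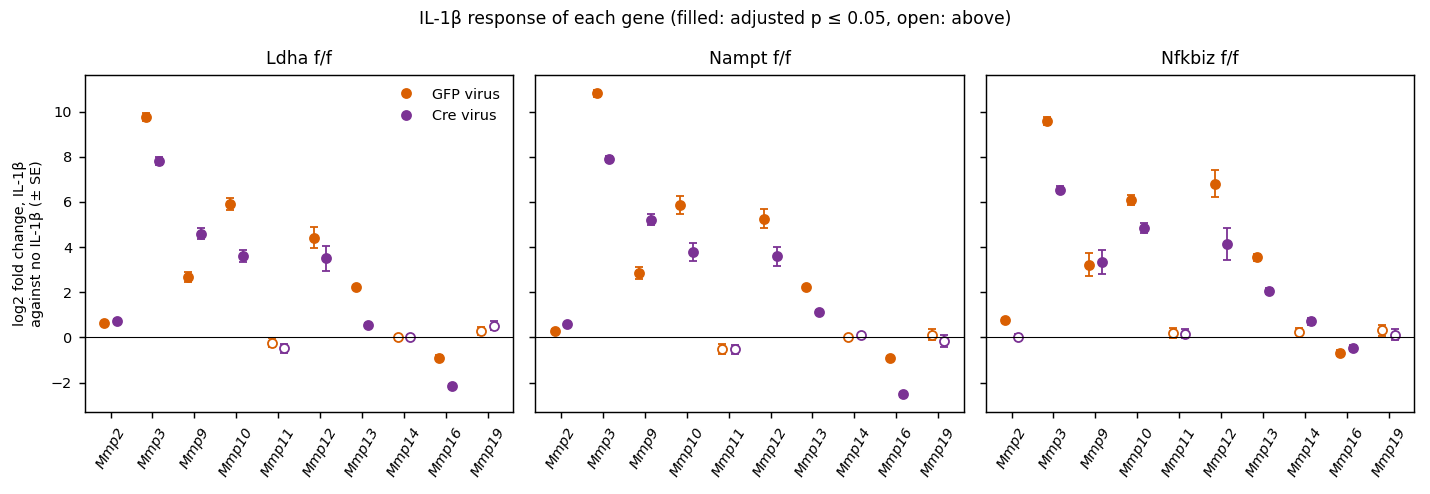
Log2 fold change with IL-1β against without (± SE, 2 libraries against 2) of the 10 MMP genes in the chondrocytes of the Ldha, Nampt and Nfkbiz f/f lines with GFP virus or Cre virus, filled where the edgeR adjusted p was 0.05 or less. Mmp3 lies between 9.60 and 10.81 with GFP virus and between 6.54 and 7.90 with Cre virus, and Mmp9 lies higher with Cre virus than with GFP virus in Ldha f/f and Nampt f/f.

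The comparison of Cre with GFP virus under IL-1β asks whether chondrocytes without Ldha, Nampt or Nfkbiz hold other MMP levels in inflammation. Of the 10 genes, 7 were called in Ldha f/f (2 higher, 5 lower), 8 in Nampt f/f (3 higher, 5 lower) and 6 in Nfkbiz f/f (1 higher, 5 lower). Among all genes tested, 34.0% were called in Ldha f/f (16.9% higher, 17.0% lower), 48.4% in Nampt f/f (25.0% higher, 23.4% lower) and 17.4% in Nfkbiz f/f (8.16% higher, 9.20% lower). The median log2 fold change of the 10 genes was -1.05, -1.01 and -0.48, against -0.016, -0.030 and -0.009 over all genes. Mmp3, Mmp10, Mmp12 and Mmp13, the 4 clustered genes, were lower with Cre virus in all 3 lines.

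Mmp3 held 872 and 864 CPM with GFP virus and IL-1β in Ldha f/f, and 170.1 and 161 CPM with Cre virus and IL-1β. In Nampt f/f it went from 879 and 849 to 156 and 149.5 CPM, and in Nfkbiz f/f from 1817 and 1791 to 290 and 274 CPM. The level with Cre virus was therefore 19.1%, 17.7% and 15.6% of that with GFP virus. The log2 fold changes were -2.37 ± 0.11, -2.48 ± 0.09 and -2.69 ± 0.12 (n = 2 and 2 in each line, edgeR adjusted p = 4.03e-07, 7.46e-09 and 1.58e-08). Even so, the level with Cre virus and IL-1β stayed far above the 0.543 to 3.06 CPM of the 6 Cre libraries without IL-1β.

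Mmp10 went from 13.4 and 15.6 to 3.14 and 3.82 CPM in Ldha f/f, from 17.6 and 21.4 to 3.75 and 5.09 CPM in Nampt f/f, and from 32.4 and 29.6 to 12.7 and 13.7 CPM in Nfkbiz f/f. Its level with Cre virus was 24.0%, 22.7% and 42.6% of that with GFP virus, with log2 fold changes of -2.04 ± 0.20, -2.13 ± 0.29 and -1.25 ± 0.14 (edgeR adjusted p = 3.85e-05, 0.000127 and 7.18e-05). In each line both Cre libraries with IL-1β stayed above the Cre libraries without it.

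Mmp13 went from 228 and 219 to 48.9 and 45.9 CPM in Ldha f/f, from 205 and 200.4 to 37.5 and 35.7 CPM in Nampt f/f, and from 584 and 567 to 243 and 164 CPM in Nfkbiz f/f. Its level with Cre virus was 21.2%, 18.1% and 35.4% of that with GFP virus, with log2 fold changes of -2.21 ± 0.07, -2.45 ± 0.07 and -1.52 ± 0.15 (edgeR adjusted p = 4.99e-08, 2.47e-09 and 1.74e-05). In Ldha f/f and Nampt f/f, Cre virus with IL-1β left this collagenase within or below the 43.2 to 50.03 CPM of the GFP libraries without IL-1β. It stayed above them in Nfkbiz f/f.

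Mmp12 went from 7.169 and 5.597 to 1.79 and 1.56 CPM in Ldha f/f, from 7.53 and 7.04 to 2.33 and 2.09 CPM in Nampt f/f, and from 16.8 and 13.3 to 3.14 and 1.87 CPM in Nfkbiz f/f. Its level with Cre virus was 26.2%, 30.3% and 16.6% of that with GFP virus, with log2 fold changes of -1.91 ± 0.39, -1.70 ± 0.30 and -2.60 ± 0.40 (edgeR adjusted p = 0.0044, 0.000836 and 0.000614). DESeq2 did not call the Nfkbiz f/f value (-2.60 ± 1.58, adjusted p = 0.296).

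The gelatinases went the other way in the Ldha and Nampt f/f lines. Mmp9 went from 6.07 and 5.50 to 11.9 and 13.3 CPM in Ldha f/f and from 6.85 and 5.37 to 27.3 and 26.2 CPM in Nampt f/f, log2 fold changes of 1.14 ± 0.18 and 2.13 ± 0.19 (edgeR adjusted p = 0.000991 and 5.84e-06). In Nfkbiz f/f it held 3.01 and 3.04 CPM with GFP virus and 3.78 and 1.83 CPM with Cre virus, a log2 fold change of -0.13 ± 0.40 (edgeR adjusted p = 0.873), and the 2 Cre libraries lay on either side of the GFP libraries. Mmp2 went from 192 and 207 to 252 and 251 CPM in Ldha f/f and from 151 and 135 to 221 and 225 CPM in Nampt f/f, log2 fold changes of 0.36 ± 0.08 and 0.66 ± 0.08 (edgeR adjusted p = 0.00705 and 4.86e-05). By contrast Mmp2 fell in Nfkbiz f/f, from 214 and 199 to 117 and 140.4 CPM, a log2 fold change of -0.70 ± 0.11 (edgeR adjusted p = 0.000869). In Ldha f/f the Mmp2 call was lost without the first GFP library with IL-1β (0.27, adjusted p = 0.075). The summed level of the 9 macrophage and osteoclast markers was not higher with Cre virus in these 2 lines, at 31.4 and 34.1 against 27.1 and 29.4 CPM in Ldha f/f and at 26.4 and 29.9 against 21.9 and 24.2 CPM in Nampt f/f, with 0 and 1 marker (Cd68) called as lower. That of the 4 neutrophil markers was lower, at 11.56 and 15.05 against 7.905 and 9.09 CPM in Ldha f/f. In Nampt f/f it was 4.45 and 5.56 against 2.14 and 3.88 CPM. Of these markers S100a9 was called as lower in Ldha f/f (log2 -0.59 ± 0.17). The summed level of the 4 endothelial markers was higher, at 4.74 and 5.27 against 16.8 and 21.1 CPM in Ldha f/f and at 6.85 and 7.37 against 22.9 and 26.3 CPM in Nampt f/f. In these lines 1 and 2 of the 4 were called as higher and 0 and 1 as lower. The log2 fold changes were 3.27 ± 0.19 and 3.45 ± 0.15 for Kdr and 0.88 ± 0.47 and 1.43 ± 0.44 for Cdh5. They were -0.79 ± 0.44 and -1.74 ± 0.36 for Pecam1 and -0.23 ± 0.48 and -0.46 ± 0.56 for Tek. The part of these markers in the Mmp9 and Mmp2 results was not tested.

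Of the membrane-bound members, Mmp16 was lower with Cre virus in Ldha f/f, from 30.5 and 28.7 to 8.53 and 7.43 CPM, and in Nampt f/f, from 30.0 and 31.6 to 5.65 and 6.76 CPM, log2 fold changes of -1.86 ± 0.12 and -2.31 ± 0.11 (edgeR adjusted p = 2.42e-06 and 4.58e-08). In Nfkbiz f/f it held 42.9 and 37.3 CPM with GFP virus and 50.5 and 44.3 CPM with Cre virus, a log2 fold change of 0.23 ± 0.12 (edgeR adjusted p = 0.227). Mmp14 rose in Nampt f/f, from 210.0 and 208 to 274 and 285 CPM, and in Nfkbiz f/f, from 194 and 178 to 264 and 356 CPM, log2 fold changes of 0.43 ± 0.05 and 0.72 ± 0.14 (edgeR adjusted p = 6.36e-05 and 0.00357). In Ldha f/f it held 215 and 209 CPM with GFP virus and 247 and 244 CPM with Cre virus, a log2 fold change of 0.24 ± 0.09 that missed the threshold (edgeR adjusted p = 0.0774) and passed it with the library set as a block (0.24 ± 0.06, 0.00702), with DESeq2 (0.0482), with voomWithQualityWeights (0.042) and without TMM scaling (0.36, 0.0233). The Nfkbiz f/f call for Mmp14 was lost without the second GFP library with IL-1β (0.66, adjusted p = 0.0575). Mmp11 and Mmp19 were not called in any line, with log2 fold changes between -0.31 and 0.28.

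**Figure D4:**
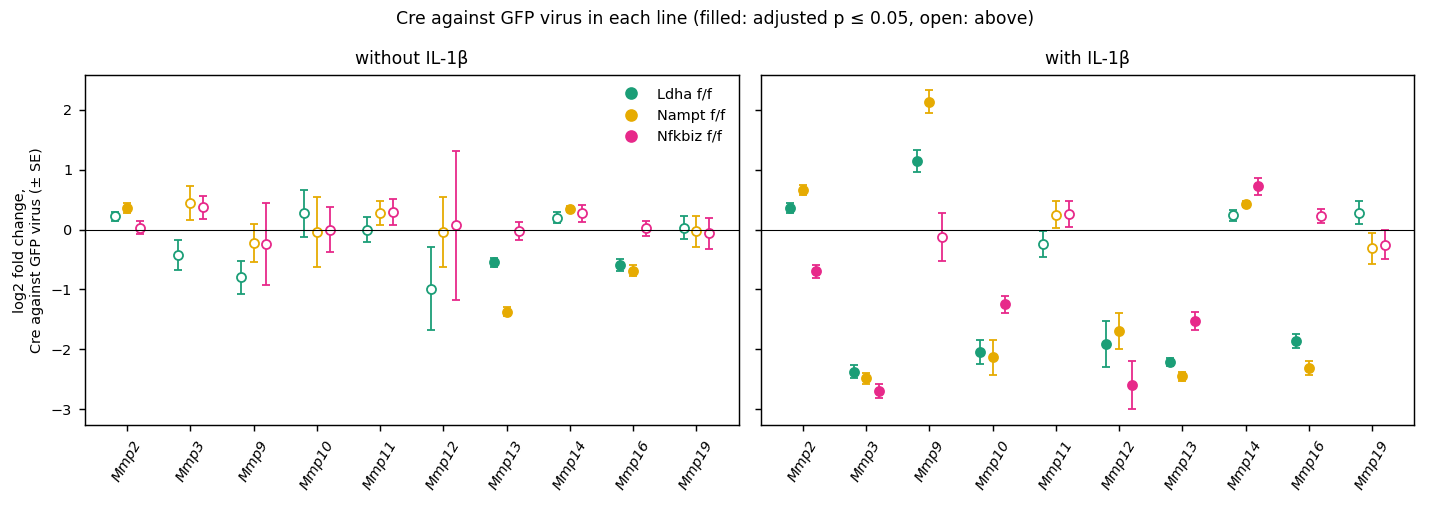
Log2 fold change of Cre against GFP virus (± SE, 2 libraries against 2) of the 10 MMP genes in the 3 floxed lines, without IL-1β (left) and with IL-1β (right), filled where the edgeR adjusted p was 0.05 or less. With IL-1β the points of Mmp3, Mmp10, Mmp12 and Mmp13 lie between -2.69 and -1.25 in all 3 lines, while those of Mmp9 and Mmp16 part between Nfkbiz f/f and the other lines.

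The make-up of the MMP transcripts under IL-1β also differed between the viruses. The summed level of the 10 genes was 694 to 1404 RPKM with GFP virus and 294.0 to 415 RPKM with Cre virus. Mmp3 took 30.9%, 28.8% and 38.0% of the sum with Cre virus in the Ldha, Nampt and Nfkbiz f/f lines, and Mmp14 took 31.7%, 36.5% and 28.9%, so that the leading gene was Mmp14 in the first 2 lines and Mmp3 in the third. Markers of chondrocytes and of other cells moved with the virus in the same libraries. The summed level of the 10 chondrocyte markers was 26930 and 27360 CPM with GFP virus and IL-1β and 13910 and 14790 CPM with Cre virus and IL-1β in Ldha f/f, and 26500 and 27130 against 14840 and 15210 CPM in Nampt f/f, with 9 and 8 of the 10 called as lower. Of the 7 fibroblast and perichondrium markers, 6 were called as lower and none as higher in each of these 2 lines, with sums of 3463 and 3578 against 2216 and 2244 CPM in Ldha f/f and of 3034 and 3083 against 1883 and 1938 CPM in Nampt f/f. Of the 3 osteoblast markers tested, 2 and 1 were called as lower, among them Ibsp (log2 -2.14 ± 0.17 and -1.67 ± 0.22). The chondrocyte marker sums in Nfkbiz f/f were 30690 and 32980 against 36860 and 39450 CPM, with 1 of the 10 called as lower. The fibroblast and perichondrium sums there were 727 and 750 against 803 and 854 CPM, below those of the other lines. In Nfkbiz f/f 1 fibroblast marker was called as higher, 1 as lower and no osteoblast marker either way, while Mmp3, Mmp10, Mmp12 and Mmp13 fell there too. The part of these markers in the MMP results was not tested.

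Without IL-1β, 2 of the 10 genes were called with Cre virus in Ldha f/f, 4 in Nampt f/f and 0 in Nfkbiz f/f, fewer than with IL-1β. Among all genes tested 5.52%, 14.4% and 0.260% were called. In Ldha f/f, where 5.52% of all genes tested were called, Mmp13 went from 48.0 and 47.0 to 33.6 and 31.9 CPM (log2 -0.55 ± 0.07, edgeR adjusted p = 0.00214) and Mmp16 from 58.5 and 51.1 to 39.1 and 34.3 CPM (-0.59 ± 0.10, 0.0104). The Mmp16 call was lost without the first GFP library (-0.49, adjusted p = 0.0625) or without the second Cre library (-0.51, 0.0895). With the library set as a block Mmp2 was called too (0.22, 0.0312). In Nampt f/f, where 14.4% of all genes were called, Mmp13 went from 45.3 and 43.2 to 18.1 and 16.3 CPM (log2 -1.37 ± 0.08, edgeR adjusted p = 1.28e-06), and Mmp16 was lower by -0.69 ± 0.09 (0.000634), Mmp14 higher by 0.34 ± 0.05 (0.00161) and Mmp2 higher by 0.36 ± 0.08 (0.0113). The Mmp2 call was lost without the second GFP library (0.28, adjusted p = 0.0571) or without the second Cre library (0.33, 0.0729). The Mmp14 call was lost with all 24 libraries in 1 model (0.35, 0.0507). None of the 10 in Nfkbiz f/f was called by edgeR, none had an unadjusted p of 0.05 or less and DESeq2 called none, where 0.260% of all genes (40) were called. There Mmp3 held 1.87 and 2.78 CPM with GFP virus and 3.06 and 3.04 CPM with Cre virus (log2 0.37 ± 0.19, adjusted p = 0.903).

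The interaction of virus and IL-1β tests whether the response to IL-1β itself differed between Cre and GFP virus. It was called for 5 of the 10 genes in Ldha f/f, 5 in Nampt f/f and 3 in Nfkbiz f/f, where 11.5%, 22.0% and 5.19% of all genes tested were called. The Mmp3 response was smaller with Cre virus by log2 1.94 ± 0.28, 2.92 ± 0.29 and 3.07 ± 0.22 in the Ldha, Nampt and Nfkbiz f/f lines (edgeR adjusted p = 0.0019, 7.1e-05 and 7.76e-06). The Mmp13 response was smaller by log2 1.66 ± 0.10, 1.09 ± 0.10 and 1.50 ± 0.21 (edgeR adjusted p = 1.64e-05, 4.91e-05 and 0.00106). In Ldha f/f and Nampt f/f the Mmp10 response was smaller by log2 2.31 ± 0.45 and 2.09 ± 0.67 (adjusted p = 0.00889 and 0.0486), the fall of Mmp16 was larger by 1.27 ± 0.16 and 1.62 ± 0.14 (0.000835 and 3.15e-05), and the rise of Mmp9 was larger by 1.93 ± 0.33 and 2.36 ± 0.38 (0.00464 and 0.00133).
The third call in Nfkbiz f/f was Mmp2, whose response was smaller by log2 0.73 ± 0.16 (adjusted p = 0.0176), while Mmp10 had a value of -1.25 ± 0.41 (0.118) and Mmp9 of 0.12 ± 0.78 (0.961). Mmp12, although lower with Cre virus under IL-1β in all 3 lines, was not called here in any, at -0.91 (adjusted p = 0.58), -1.66 (0.106) and -2.67 (0.361). Some of these calls were weak. Without the first Ldha f/f Cre library Mmp3 (-1.48, adjusted p = 0.0546) and Mmp10 (-2.24, 0.0703) lost theirs, and voomWithQualityWeights did not call Mmp10 in Ldha f/f (0.08) or Nampt f/f (0.142). In Nampt f/f Mmp10 lost the call without either GFP library with IL-1β (-2.29 and -1.94), without either Cre library with IL-1β (-1.92 and -2.31), without the first Cre library (-1.06) or without the second GFP library (-1.71), and with filterByExpr (-2.08, 0.0509). Without the first GFP library its value was -3.71. That library also moved Mmp3 to -2.31, the first Nampt f/f Cre library moved Mmp9 to 3.01, and without the second Cre library Mmp12 was called (-2.15, adjusted p = 0.0374). Mmp2 in Nfkbiz f/f lost the call without either GFP library (-0.66 and -0.77), without either GFP library with IL-1β (-0.68 and -0.78) or without the first Cre library (-0.64), and without the first Cre library with IL-1β Mmp14 was called (0.65, adjusted p = 0.02). With the library set as a block, Mmp2 in Nampt f/f was called too (0.30, adjusted p = 0.00121).

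The differences between lines were tested in 1 model of the 24 floxed libraries (16727 genes tested). Marker levels differed between the lines before IL-1β. With GFP virus the fibroblast and perichondrium sum was 837 and 1004 CPM in Nfkbiz f/f, 4476 and 4589 in Ldha f/f, and 3769 and 3948 in Nampt f/f. The chondrocyte sum was 82840 and 94050, 72960 and 73140, and 71870 and 72940 CPM in the same order. The part of these markers in the differences between lines was not tested. The response to IL-1β with GFP virus differed between Nfkbiz f/f and Ldha f/f for 1.48% of all genes and for 1 of the 10, Mmp13, which rose by log2 1.31 ± 0.16 more in Nfkbiz f/f (edgeR adjusted p = 0.000112). Between Nfkbiz f/f and Nampt f/f it differed for 2.65% of all genes and for 2 of the 10. In Nfkbiz f/f the rise of Mmp13 was larger by log2 1.32 ± 0.16 (edgeR adjusted p = 7.66e-05) and that of Mmp3 smaller by 1.21 ± 0.29 (0.0268). The Mmp3 level with IL-1β was still higher in Nfkbiz f/f, at 1817 and 1791 against 879 and 849 CPM. Without IL-1β the Mmp3 counts were 42 and 66 in Nfkbiz f/f and 14 and 14 in Nampt f/f. The Mmp3 call was lost with voomWithQualityWeights (-1.25, 0.0915), while DESeq2 (0.47, 0.0331) and voomWithQualityWeights (0.47, 0.0255) also called Mmp2. The effect of Cre virus under IL-1β differed between Nfkbiz f/f and Ldha f/f for 22.5% of all genes and 5 of the 10, and between Nfkbiz f/f and Nampt f/f for 32.2% of all genes and 5 of the 10. Nampt f/f and Ldha f/f differed for 0.00598% of all genes (1 gene) in the response to IL-1β and for 0.138% (23 genes) in the effect of Cre virus, and for none of the 10 by edgeR or DESeq2. Of the 10, 2 and 3 had an unadjusted p of 0.05 or less, and voomWithQualityWeights called Mmp9 in the second (1.00, adjusted p = 0.0346).

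For Mmp2 the effect of Cre virus under IL-1β was lower in Nfkbiz f/f, by log2 -1.02 ± 0.14 against Ldha f/f and -1.31 ± 0.14 against Nampt f/f (edgeR adjusted p = 1.36e-05 and 3.33e-07). For Mmp9 the difference was log2 -1.23 ± 0.38 and -2.21 ± 0.38 (adjusted p = 0.0244 and 0.000146), and for Mmp16 it was 2.12 ± 0.17 and 2.58 ± 0.17 (8.01e-09 and 3.97e-10). Mmp13 fell less in Nfkbiz f/f, by log2 0.73 ± 0.16 and 0.98 ± 0.16 (adjusted p = 0.00183 and 6.77e-05). Mmp10 fell less by log2 0.93 ± 0.30 against Nampt f/f (adjusted p = 0.0234), with 0.83 ± 0.31 against Ldha f/f (0.0613), which DESeq2 (0.81, 0.0385) and voomWithQualityWeights (0.82, 0.0327) called, and Mmp14 rose more by 0.52 ± 0.16 against Ldha f/f (0.026), with 0.33 ± 0.16 against Nampt f/f (0.133). The Mmp14 call was lost without TMM scaling (0.45, adjusted p = 0.0518). For Mmp3 the difference was small, at log2 -0.29 ± 0.16 and -0.17 ± 0.16 (adjusted p = 0.219 and 0.475), although DESeq2 (-0.31, 0.0194) and voomWithQualityWeights (-0.29, 0.0278) called the first. Between Nampt f/f and Ldha f/f the differences in the effect of Cre virus were -0.12 ± 0.16 for Mmp3, -0.10 ± 0.32 for Mmp10, -0.25 ± 0.16 for Mmp13, 0.20 ± 0.60 for Mmp12, -0.45 ± 0.18 for Mmp16 and 0.99 ± 0.35 for Mmp9 (edgeR adjusted p = 0.322 to 0.965 over these 6).

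The other genes of the pathway moved with IL-1β in both directions. Of the 6 MMP inhibitors, 5 were tested, 1 rose and 4 fell in the GFP libraries (median log2 -0.55, against -0.008 over all genes, of which 28.0% rose and 28.3% fell). Timp1, a secreted inhibitor, rose by log2 1.05 ± 0.04, while Timp3, the inhibitor that binds to the matrix, fell by 1.59 ± 0.08, Timp2 by 0.44 ± 0.04, the membrane-anchored inhibitor Reck by 0.55 ± 0.05 and the protease trap A2m by 0.60 ± 0.05. With Cre virus under IL-1β, 2 of the 5 were called as higher and 3 as lower in Ldha f/f and in Nampt f/f. In Nfkbiz f/f 3 were called as higher and 2 as lower. Among all genes tested 34.0%, 48.4% and 17.4% were called in these comparisons. Timp3 was higher in all 3 lines, by log2 1.19 ± 0.09, 1.18 ± 0.06 and 1.64 ± 0.10 in the Ldha, Nampt and Nfkbiz f/f lines. Timp1 was lower in all 3, by log2 -0.67 ± 0.07, -0.67 ± 0.07 and -1.09 ± 0.10. Timp2 was higher and A2m lower in all 3, while Reck was lower in Ldha f/f and Nampt f/f and higher in Nfkbiz f/f.

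Of the 8 MMP activators, 7 were tested, 4 rose and 2 fell with IL-1β (median log2 0.55), where 28.0% of all genes were called as higher and 28.3% as lower. The plasminogen activators Plau and Plat rose by log2 1.12 ± 0.11 and 0.55 ± 0.12, the proprotein convertase Pcsk5 by 0.97 ± 0.08 and the cysteine protease Ctsb by 0.74 ± 0.04, while the convertases Pcsk6 and Furin fell by 1.42 ± 0.04 and 0.18 ± 0.06. With Cre virus under IL-1β, 4 were called as higher and 3 as lower in Ldha f/f and in Nampt f/f, and 1 as higher and 2 as lower in Nfkbiz f/f. Among all genes tested 34.0%, 48.4% and 17.4% were called in these comparisons. Pcsk5 was lower in all 3 lines, by log2 -1.99 ± 0.16, -1.93 ± 0.17 and -1.24 ± 0.14.

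Of the 12 cartilage matrix genes whose products MMPs cleave, all were tested, 2 rose and 9 fell with IL-1β (median log2 -1.37), against 28.0% and 28.3% of all genes. The matrilins Matn3 and Matn1 fell by log2 2.65 ± 0.06 and 2.32 ± 0.06, aggrecan (Acan) by 2.09 ± 0.06, Col10a1 by 2.03 ± 0.05 and Col2a1 by 1.35 ± 0.05, while the proteoglycans Vcan and Dcn rose by 1.14 ± 0.07 and 0.81 ± 0.04. With Cre virus under IL-1β, 11 of the 12 were called as lower and none as higher in Ldha f/f, where 17.0% of all genes were called as lower, and 10 as lower and none as higher in Nampt f/f, where 23.4% were. Acan was lower by log2 -0.85 ± 0.08 and -0.82 ± 0.05 there, and held a value of 0.37 ± 0.16 in Nfkbiz f/f (edgeR adjusted p = 0.149), where 2 of the 12 were called as higher and 2 as lower (8.16% and 9.20% of all genes). These counts share 6 genes with the chondrocyte marker list above.

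Of the 16 transcription regulators of MMP genes, all were tested, 14 rose and 1 (Runx2, -0.14 ± 0.05) fell with IL-1β (median log2 0.93), against 28.0% and 28.3% of all genes. Nfkbiz rose most, by log2 3.42 ± 0.09, followed by the Ets factor Elf3 at 2.21 ± 0.24, the AP-1 subunits Junb at 1.99 ± 0.07 and Fosl1 at 1.96 ± 0.08, and Cebpb at 1.61 ± 0.07. With Cre virus under IL-1β, 10 of the 16 were called as lower and none as higher in Nfkbiz f/f, where 9.20% of all genes were called as lower. The 10 include Nfkbiz, the deleted gene itself (-2.93 ± 0.11), beside Elf3 (log2 -2.44 ± 0.37), Fos (-1.46 ± 0.15) and Cebpb (-1.35 ± 0.10). In Ldha f/f 3 were called as higher and 7 as lower (16.9% and 17.0% of all genes), and in Nampt f/f 6 as higher and 7 as lower (25.0% and 23.4%). Nfkbiz itself was lower with Cre virus in those 2 lines too, at 177 and 164 CPM with GFP virus against 69.7 and 66.9 CPM with Cre virus in Ldha f/f (log2 -1.30 ± 0.10), and at 202 and 204 against 67.7 and 60.8 CPM in Nampt f/f (-1.64 ± 0.08).

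Of the 13 other MMP genes of the files, 4 passed the filter for the 6 against 6 comparison. Mmp17 rose by log2 1.17 ± 0.22, and Mmp15 and Mmp28 fell by 0.67 ± 0.12 and 0.56 ± 0.08. With Cre virus under IL-1β, 4 of the 8 tested were called as higher and none as lower in Ldha f/f, 5 of 7 as higher and 1 as lower in Nampt f/f, and 3 of 5 as higher and none as lower in Nfkbiz f/f, where 16.9%, 25.0% and 8.16% of all genes were called as higher. Mmp15, a membrane-bound member like Mmp14, was higher in all 3 lines, by log2 1.59 ± 0.17, 1.63 ± 0.15 and 2.82 ± 0.25.

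Over the 12 conditions of the floxed lines, the genes whose level followed that of Mmp3 most closely were Saa3, Nos2 and C3, with a root mean square difference of 0.778, 0.895 and 0.935 in log2(CPM + 0.1) after centring each gene on its mean, where Mmp3 itself spanned 11.5. Those most like Mmp10 were Mmp12 (0.641), Zc3h12a (0.848) and Vnn1 (0.888), over a span of 6.56. Those most like Mmp13 were C1ra (0.313), Prg4 (0.369) and Casp4 (0.379), over a span of 5.06. These are descriptions over 12 group means and 16727 genes, with no test, and the groups share their lines and library sets.

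In wild-type chondrocytes the values did not follow the labels in the second library set, and no comparison could be read without that. In the first set, Mmp3 was at 1.06 CPM untreated, 1.20 with FX11, 9125 with IL-1β and 8008 with both. In the second set it was at 0.809 CPM untreated, 2016 in the library labelled FX11, 0.784 in the library labelled IL-1β and 661 with both. Mmp13 was at 87.1, 65.8, 2432 and 1157 CPM in the same order in the first set, and at 99.5, 1449, 83.4 and 848 CPM in the second. Mmp10 was at 0, 0.0556, 75.2 and 57.7 CPM in the first set and at 0.221, 21.7, 0.0373 and 8.22 CPM in the second. Each of the 3 genes was high in both libraries given both agents, in the first library with IL-1β and in the library labelled FX11.

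**Figure D5:**
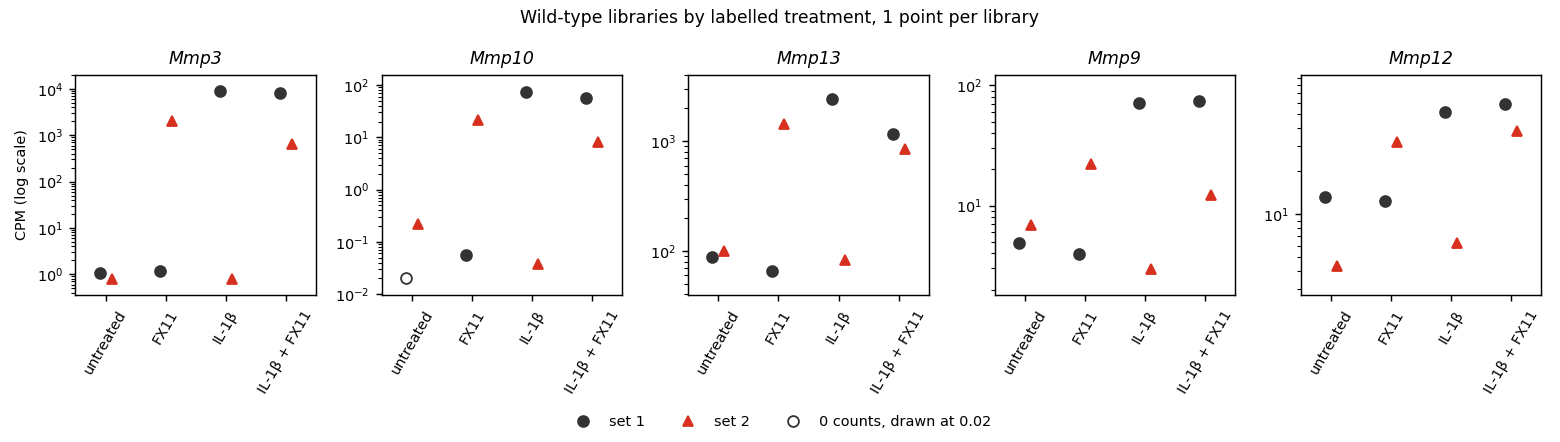
Level of Mmp3, Mmp10, Mmp13, Mmp9 and Mmp12 in CPM (log scale) in the 8 wild-type libraries by labelled treatment, circles for the first and triangles for the second library set, 1 point per library, with 0 counts drawn open at 0.02. In the second set the library labelled FX11 (Mmp3 2016 CPM) lies above the library labelled IL-1β (0.784 CPM), and in the first set the order is the opposite, at 1.20 and 9125 CPM.

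With the groups as labelled, edgeR called 0% of the 15461 genes tested, and none of the 10, in each of the 4 wild-type comparisons, which were IL-1β, FX11 and both against untreated, and both against IL-1β. In that order 2, 0, 1 and 0 of the 10, and 153, 68, 860 and 102 of all genes, had an unadjusted p of 0.05 or less. DESeq2 called Mmp3 with both agents against untreated (log2 12.16 ± 2.94, adjusted p = 0.0101) and none of the 10 otherwise, and voomWithQualityWeights called none. Without the library labelled IL-1β and the library labelled FX11, an alternative added after the values were seen, the IL-1β and FX11 arms hold 1 library each and are assumed to vary like the other groups. None of the 10 was called then, which says little about either agent. The difference that bears on FX11, both agents against IL-1β alone, was log2 -0.08 ± 3.16 for Mmp3 and -0.33 ± 1.61 for Mmp13, so these libraries could not resolve even a several-fold effect.

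Mmp9 and Mmp12 were also read beside the markers of other cells in wild-type chondrocytes. Mmp9 was at 4.84 and 6.84 CPM untreated, 3.98 with FX11 and 22.03 in the library labelled FX11, 70.7 with IL-1β and 2.95 in the library labelled IL-1β, and 74.7 and 12.4 with both, in the first and second set. Mmp12 was at 13.2 and 4.30, 12.2 and 31.8, 51.8 and 6.23, and 59.2 and 38.0 CPM in the same order, while the 6 GFP libraries of the floxed lines without IL-1β held at most 0.939 CPM of Mmp9 and 0.401 CPM of Mmp12. The summed level of the 9 macrophage and osteoclast markers was 92.4 to 234 CPM in the 8 wild-type libraries and 15.4 to 57.3 CPM in the 24 floxed libraries, with Csf1r at 8.40 to 29.8 against 1.47 to 4.37 CPM, and that of the 4 neutrophil markers was 7.25 to 30.4 against 1.403 to 15.1 CPM. Wild-type libraries had no virus, so genotype, virus and these markers cannot be told apart there, and no test was made between them. Mmp2 (180.4 to 473 CPM), Mmp14 (237 to 416), Mmp16 (29.5 to 80.7), Mmp11 (7.84 to 12.4) and Mmp19 (7.34 to 16.7) are given here by their range over the 8 wild-type libraries.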

How the data were processed

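Per the labels and the paper's methods, the authors depleted ribosomal RNA, aligned reads with STAR to Ensembl release 76 (GRCm38) and deposited featureCounts counts per gene, not normalized, for 32 libraries. The deposited CPM and RPKM values were not used. Groups came from the sample labels. Counts were tested with edgeR 4.0.16 (R 4.3.3; quasi-likelihood, TMM, two-sided), leaving out 355 ribosomal RNA genes and genes not above 1 CPM in at least 1 library for groups of 2, or 5 libraries for 6 against 6. P-values were Benjamini-Hochberg adjusted over all genes tested, and a gene was called at 0.05 or less. The SE is the log2 fold change divided by the root of F. Lines were fitted over 8 libraries each. The 6 against 6 comparison held line and library set as covariates. CPM was the count over the TMM-scaled total, and RPKM divided it by exonic length.

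The genes and lists were chosen with earlier results of these data known. Named genes were the 10 MMPs, the 3 deleted genes, listed genes called in the 6 against 6 comparison, cell type markers, and the 3 genes of most like pattern to Mmp3, Mmp10 and Mmp13. Library set is the same as the replicate number except in Nfkbiz f/f. It paired the libraries in Ldha f/f (correlation of deviations 0.438 to 0.747 over 7803 genes in 6 pairs of conditions) and Nampt f/f (0.542 to 0.694), not in wild type (-0.335 to 0.707). No replicates agreed within sampling noise. Alternatives were DESeq2 1.42.0, voomWithQualityWeights (limma 3.58.1), RLE or no scaling, filterByExpr or no filter, the library set as a block, other library choices and leaving out each library. Simulated counts with known changes served to check the scripts. With 2 libraries a group the spread between libraries, not depth, limits most values. Low counts without IL-1β limit the folds of Mmp3, Mmp9, Mmp10 and Mmp12.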

Additional observations from a re-analysis of the deposited data

Results flagged for a closer look

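The effect of a treatment differed between lines, by the test of the difference itself, for 13 values of the 10 genes. In the response to IL-1β with GFP virus, Mmp13 differed by log2 1.31 between Nfkbiz f/f and Ldha f/f and by 1.32 between Nfkbiz f/f and Nampt f/f, and Mmp3 by -1.21 between Nfkbiz f/f and Nampt f/f. The Mmp3 value rests on baselines of 42 and 66 counts in Nfkbiz f/f and 14 and 14 in Nampt f/f. By voomWithQualityWeights it was not called (-1.25, adjusted p = 0.0915). In the effect of Cre virus under IL-1β, Nfkbiz f/f differed from Ldha f/f by log2 -1.02 for Mmp2, -1.23 for Mmp9, 0.73 for Mmp13, 0.52 for Mmp14 and 2.12 for Mmp16. It differed from Nampt f/f by log2 -1.31 for Mmp2, -2.21 for Mmp9, 0.93 for Mmp10, 0.98 for Mmp13 and 2.58 for Mmp16. All Nfkbiz f/f libraries belong to the second set, and these values compare them with both sets of the other lines, so line and set are mixed. In the second set alone, Mmp13 with GFP virus and IL-1β held 219 CPM in Ldha f/f and 200.4 CPM in Nampt f/f. Mmp16 under IL-1β went there from 28.7 with GFP virus to 7.43 CPM with Cre virus in Ldha f/f, and from 31.6 to 6.76 CPM in Nampt f/f. In Nfkbiz f/f it went from 42.9 and 37.3 to 50.5 and 44.3 CPM. Differences within 1 set were not tested. The search for a single library far from the other 5 flagged 0 of the 20 arms of 6 GFP libraries, where chance alone flags about 1 in 20. It cannot see 2 libraries that stand apart together, as the 2 Nfkbiz f/f libraries with IL-1β did for Mmp3 (1817 and 1791 CPM, against 849 to 879 CPM) and Mmp13 (584 and 567 CPM, against 200.4 to 228 CPM).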

How the results depend on the processing

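With 2 libraries a group, each value rests on few samples. Over all alternatives and the 10 genes, 2910 refitted log2 fold changes were compared with the reported ones. Of these, 2844 kept their side of the threshold, 31 lost a call, 35 gained one and 0 changed sign while called. The counts of called MMP genes stayed within 1.5 times of the reported ones in 286 of 291 cases. The exceptions were 1 gene in place of 0 with DESeq2 for both agents against untreated wild type, 1 in place of 0 with voomWithQualityWeights for the effect of Cre virus under IL-1β in Nampt f/f against Ldha f/f, and, leaving out 1 library at a time, 1 to 2 genes for Cre virus without IL-1β in Ldha f/f and 3 to 5 for the interaction in Ldha f/f. With the library set as a replicate block, which the pairing allows in Ldha f/f and Nampt f/f, all-gene calls rose from 1825 to 3374 and from 3552 to 5648 for the interaction and from 877 to 1994 and from 2319 to 4311 for Cre virus without IL-1β. Among the 10 genes the block added the 7 calls named in the report, and no call was lost. In Nfkbiz f/f, 1325 genes were called without a filter and 1428 with 24 libraries in 1 model in place of 797 for the interaction, and 170, 146 and, with DESeq2, 71 in place of 40 for Cre virus without IL-1β. Between Nampt f/f and Ldha f/f, DESeq2, voomWithQualityWeights and no filter gave 10, 0 and 21 genes in place of 1 for the response to IL-1β, and 86, 69 and 95 in place of 23 for the effect of Cre virus. In wild type DESeq2 called 6, 2, 153 and 1 genes in place of 0, and no filter gave 8 in place of 0 in 1 comparison. Leaving out 1 library at a time moved some all-gene counts by over 1.5 times, to 289 to 449 (Cre virus without IL-1β) and 1081 to 1204 (interaction) in Ldha f/f and to 1332 to 1435 (Cre virus without IL-1β) in Nampt f/f. In Nfkbiz f/f such counts were 344 to 1892 for the interaction, 21 to 23 for Cre virus without IL-1β, 2487 to 2563 in place of 4120 for IL-1β with GFP virus, 1523 in place of 3391 for IL-1β with Cre virus and 1290 to 1410 in place of 2666 for Cre virus under IL-1β. The fits with no filter gave p-values smaller by many orders of magnitude than the reported ones, so their calls are not relied on. The cause of these differences was not tested.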

Other observations

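The effect of Cre virus under IL-1β differed between the Ldha and Nampt f/f lines for 0 of the 10 genes by edgeR and DESeq2 (3 at an unadjusted p of 0.05 or less) and for 1, Mmp9, by voomWithQualityWeights. With Cre virus and IL-1β, Mmp3 held 170.1 and 161 CPM in Ldha f/f and 156 and 149.5 CPM in Nampt f/f, Mmp10 held 3.14 and 3.82 against 3.75 and 5.09 CPM, and Mmp16 held 8.53 and 7.43 against 5.65 and 6.76 CPM. Mmp9 stood further apart, at 11.9 and 13.3 against 27.3 and 26.2 CPM. Each line has its own GFP libraries, so these values share no control.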
